A study of Mus musculus with 6 samples.

Results

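Cyclins are the activating subunits of cyclin-dependent kinases (CDKs), and most CDKs need a bound cyclin to phosphorylate their targets, although a few have activators that are not cyclins. The D-type cyclins act with CDK4 and CDK6 in G1, the E- and A-type cyclins with CDK2 around DNA replication, and the A- and B-type cyclins with CDK1 at division, while other cyclin and CDK pairs act on RNA polymerase II. Inhibitors of the INK4 family bind CDK4 and CDK6, and those of the CIP/KIP family bind cyclin and CDK complexes more broadly. In the mouse testis, spermatogonia divide by mitosis, spermatocytes pass through meiosis with some germline-specific members of the families, and spermatids and adult Sertoli cells do not divide.

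The genes described here are the protein-coding genes of the deposited count table whose symbols begin with Ccn and a letter, Cdk and a digit, or Cdkn. They were measured in bulk RNA from cryosections of testis, in 3 libraries from mice with a deletion of H3t and 3 libraries from wild-type (WT) mice. H3t is a histone H3 variant of the testis, and the series concerns Leydig cells in testes with disrupted spermatogenesis. The labels give no age, strain, clone or other allele for either group. Of the 54100 genes in the table, 64 genes with such names were considered, and 63 of them had at least 30 counts over the 6 libraries. The gene left out was Cdk5r2, with 3 counts, and the analysed gene with the fewest was Cdk5r1, with 82. One further gene that matches the names was not analysed here. All 63 passed the filter on low counts.

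Total counts ran from 8315960 to 8988520 in the H3t deletion libraries and from 8037826 to 10702930 in WT. The gene of H3t, listed as H3f4, had 0 counts in each deletion library and 390, 571 and 356 counts in WT replicates 1, 2 and 3. Levels below are CPM, the counts scaled to library size and by the trimmed mean of M-values (TMM), and 1 count was worth 0.0904 to 0.0953 CPM in deletion libraries and 0.116 to 0.156 CPM in WT libraries. Defining markers of the cell types moved with the genotype. All 12 spermatid markers were called lower, at summed levels of 99.0 to 187 CPM in the deletion libraries and 27575 to 29475 CPM in WT, and so were all 12 spermatocyte markers, at 476 to 543 CPM in the deletion and 7844 to 8384 CPM in WT. The differentiating spermatogonia list summed to 374 to 417 CPM in the deletion and 1686 to 1713 CPM in WT, with 2 of 7 markers higher and 4 lower. Ddx4 (65.6 CPM in the deletion, against 1171 CPM in WT) and Dmrtb1 (4.84 CPM in the deletion, against 359 CPM in WT) carried that difference, while Kit (185 CPM in the deletion, against 21.1 CPM in WT) and Stra8 (46.3 CPM in the deletion, against 15.4 CPM in WT) went the other way (means, n = 3 each). The undifferentiated spermatogonia list summed to 217 to 250 CPM in the deletion and 131 to 151 CPM in WT, with 6 of 10 tested markers higher and 1 lower, and Nanos2 at 0 in both groups. All 20 Sertoli markers, all 12 Leydig markers and all 10 macrophage markers were called higher, with Sertoli sums of 5324 to 5367 CPM in the deletion and 1152 to 1269 CPM in WT, Leydig sums of 7177 to 7824 CPM in the deletion and 1153 to 1256 CPM in WT, and macrophage sums of 544 to 629 CPM in the deletion and 109 to 119 CPM in WT. Endothelial markers (6 of 7 called higher) summed to 86.1 to 91.2 CPM in the deletion and 28.4 to 32.2 CPM in WT, and peritubular myoid markers (5 of 7 higher, 1 lower) to 662 to 714 CPM in the deletion and 625 to 647 CPM in WT. The lower myoid gene, Actg2, averaged 7.98 ± 1.17 CPM in the deletion against 358 ± 9.61 CPM in WT (SD, n = 3 each) and was the main part of the WT sum. In such bulk samples fewer cells of a type and less RNA per cell cannot be told apart, and the part that these markers had in the results below was not tested.

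Of the 63 cyclin, CDK and inhibitor genes, 24 were called higher and 27 lower in the H3t deletion, in the quasi-likelihood test of edgeR, with p-values adjusted over 17038 genes by the Benjamini-Hochberg method and a false discovery rate of 0.05. Of all genes tested, 38.4% were called higher and 46.1% lower, so the members' shares of 38.1% and 42.9% lay near that background. The median log2 fold change, deletion minus WT, was 0.04 over the members and -0.19 over all genes tested. The libraries of the groups did not overlap in 50 of the 63 members, against 85.9% of all genes. The largest losses exceeded the largest gains in size. A called log2 change of -4 or below was found for 5 members, Ccna1, Cdkn3, Ccnb2, Cdkn2c and Ccnk (7.9% of the members), against 19.9% of all genes, and a called change of 2 or above for 4, Ccnd2, Ccng1, Cdk2ap2 and Cdk5 (6.3% of the members), against 15.3% of all genes. By role, 4 of 11 cell cycle cyclins were higher and 7 lower, 1 of 5 cell cycle CDKs was higher and 3 lower, 4 of 7 inhibitors were higher and 3 lower, 6 of 16 other cyclins were higher and 5 lower, 4 of 14 other CDKs were higher and 5 lower, and 5 of 10 CDK-binding proteins were higher and 4 lower.

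**Figure D1:**
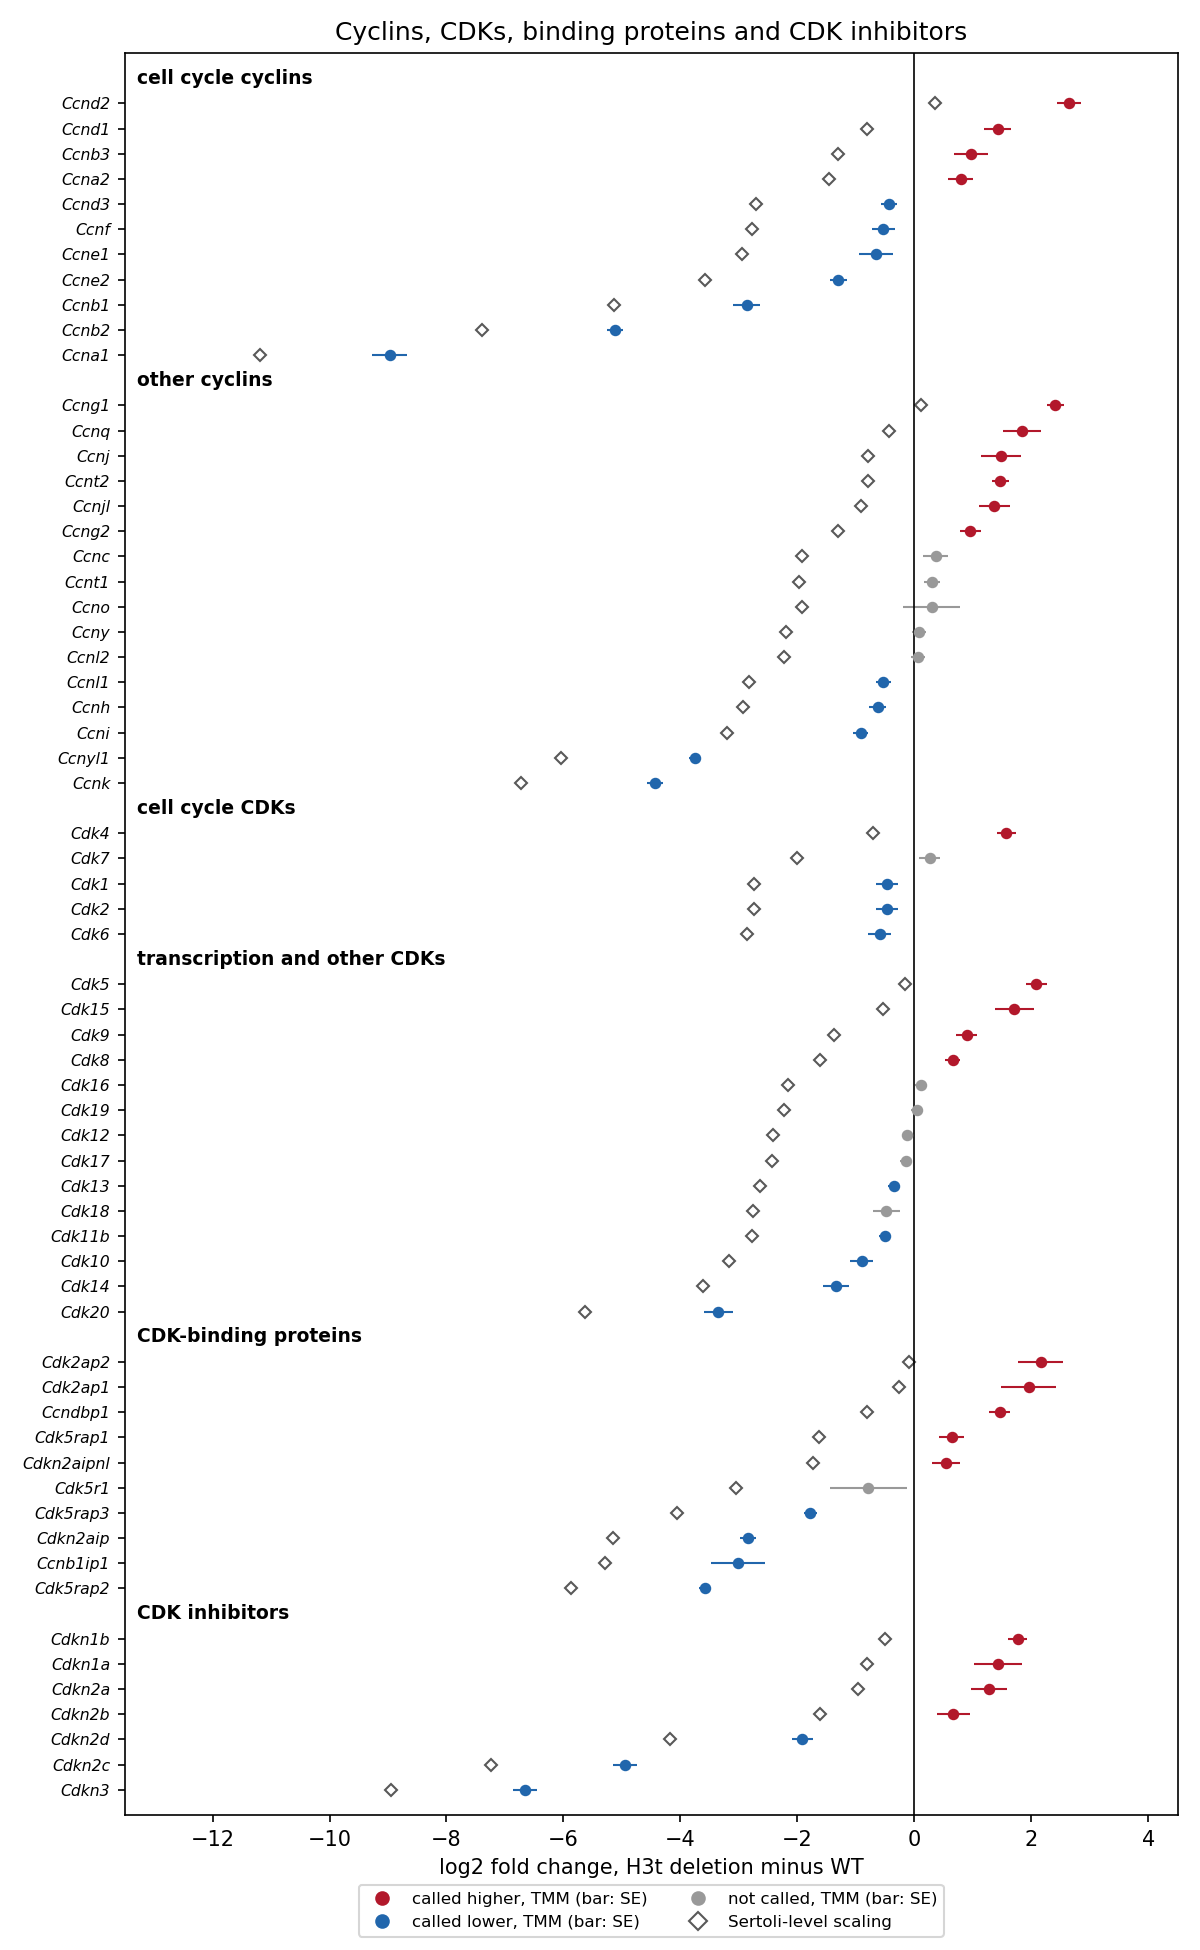
Log2 fold change of each of the 63 genes, H3t deletion minus WT, in 6 role classes. Filled circles are TMM-scaled values with their standard errors, coloured by the call at a false discovery rate of 0.05, and open diamonds are the values when every library is set to an equal Sertoli marker level. Ccna1 lies farthest left at -8.97 and Ccnd2 farthest right at 2.65, and with Sertoli-level scaling Ccnd2 and Ccng1 are the members right of 0.

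The calls depended on how the libraries were scaled. In place of 24 higher and 27 lower with TMM, 34 members were higher and 16 lower with no scaling factor, 33 were higher and 16 lower with upper-quartile factors, and 21 were higher and 30 lower with median-of-ratios factors. The median of all genes was -0.36 with median-of-ratios factors, 0.35 with upper-quartile factors and 0.45 with no factor. The 16 genes Ccna1, Ccnb1, Ccnb2, Ccne2, Ccni, Ccnk, Ccnyl1, Cdk14, Cdk20, Ccnb1ip1, Cdk5rap2, Cdk5rap3, Cdkn2aip, Cdkn2c, Cdkn2d and Cdkn3 were called lower under these 3 scalings, TMM, and scaling to an equal Sertoli or Leydig marker level, where 48.3% (median-of-ratios), 38.8% (upper-quartile) and 37.7% (none) of all genes were called lower. Another 21 genes were called higher under TMM, median-of-ratios, upper-quartile and no scaling, among them Ccna2, Ccnb3, Ccnd1, Ccnd2, Ccng1, Cdk4, Cdk5, Cdkn1a, Cdkn1b and Cdkn2a, where 35.4% (median-of-ratios), 47.6% (upper-quartile) and 49.2% (none) of all genes were called higher. These shares of all genes, lower and higher, are for single scalings, and the shares called under several scalings at once were not computed. A test against a 1.5-fold change called 17 members lower, against 40.4% of all genes. The other 11 genes called lower with TMM, Ccnd3, Ccne1, Ccnf, Ccnh, Ccnl1, Cdk1, Cdk2, Cdk6, Cdk10, Cdk11b and Cdk13, were not called lower with upper-quartile factors or with none, and Cdk13 was called higher with none. Conversely 9 genes that TMM left uncalled, Ccnc, Ccnl2, Ccnt1, Ccny, Cdk7, Cdk12, Cdk16, Cdk17 and Cdk19, were called higher with upper-quartile factors and with none, at 0.39 to 0.90 and 0.49 to 1.002 on the log2 scale. With median-of-ratios factors, Cdkn2b, Cdk5rap1 and Cdkn2aipnl lost their call as higher, at edgeR adjusted p-values of 0.118, 0.0586 and 0.155, and Cdk12, Cdk17 and Cdk18 were called lower. When every library was set to an equal Sertoli marker level, the median of all genes was -2.47, and 0 members were called higher (3.03% of all genes) and 54 lower (77.7% of all genes). At that level Ccnd2, at 0.35, and Ccng1, at 0.11, were the members above 0, and neither was called. At an equal Leydig level the median of all genes was -3.00, and 0 members were called higher (0.933% of all genes), 60 were called lower (86.8% of all genes) and none lay above 0.

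With TMM scaling the A-type cyclins moved in opposite directions. Cyclin A1, which the mouse male germ line needs to complete the first meiotic division, is encoded by Ccna1 (GRCm38, chr3:55045469-55055501, minus strand). Ccna1 stood at 0, 0.362 and 0.0953 CPM in the H3t deletion libraries and at 76.0, 94.5 and 81.9 CPM in WT. The deletion libraries held 5 counts in all, 4 of them in replicate 2, against 488 to 813 in each WT library, so the gene was near absent from every deletion library. The fitted log2 change was -8.97 (SE 0.30, edgeR adjusted p = 2.36e-13). The WT level was 545.3 times the pooled deletion level, with a 95% interval for counting error of the 5 counts of 233.6 to 1679, and without deletion replicate 2 the log2 change was -10.42 and the ratio 1796 (322.3 to 70940). Ccna2, which encodes the A-type cyclin of mitotic cells, was higher, at 13.3, 13.1 and 16.2 CPM in the deletion and 6.69, 9.65 and 8.04 CPM in WT (log2 0.79, SE 0.22, edgeR adjusted p = 0.0031), though it was lower, at -1.46, with Sertoli-level scaling. Per kilobase of exon, Ccna1 made up 2.36% ± 3.04 of the A-type cyclin level in the deletion and 95.9% ± 0.298 in WT (SD, n = 3 each).

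The B-type cyclins, which activate CDK1 at the entry into division, were also split with TMM scaling. Ccnb2 (chr9:70407692-70421547, minus strand) had 4.33, 4.16 and 3.72 CPM in the deletion and 149, 152 and 124 CPM in WT. Ccnb1 had 2.95, 2.44 and 2.57 CPM in the deletion and 18.4, 21.97 and 17.8 CPM in WT. Every deletion library was below every WT library for both genes, and the log2 changes were -5.12 (SE 0.14, edgeR adjusted p = 2.70e-14) for Ccnb2 and -2.86 (SE 0.23, edgeR adjusted p = 1.25e-08) for Ccnb1. Ccnb3, an X-linked cyclin best known from meiosis, was called higher, at 38.5, 24.7 and 19.5 CPM in the deletion and 10.6, 9.77 and 21.99 CPM in WT. The groups overlapped, since WT replicate 3 exceeded deletion replicate 3, and the call (log2 0.97, SE 0.29, edgeR adjusted p = 0.00608) was lost without WT replicate 2, at 0.73 with an edgeR adjusted p of 0.0510. With Sertoli-level scaling Ccnb3 stood at -1.31. Per kilobase of exon, Ccnb3 made up 63.7% ± 6.17 of the B-type cyclin level in the deletion and 3.20% ± 1.87 in WT, and Ccnb2 made up 29.3% ± 5.04 in the deletion and 92.2% ± 1.97 in WT (SD, n = 3 each), shares chosen after the values were seen and given with no test.

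The promoters of 4 division genes and of Ccna1 are shown because cyclin B and Cdk1 genes are textbook cases of control through CCAAT boxes, bound by the factor NF-Y, and the cell cycle genes homology region (CHR). Each line holds the 250 bases before the RefSeq start (GRCm38.p6), 5′ to 3′ on the gene's strand, and the capitals mark matches on either strand to CCAAT, to the CHR letters TTTGAA or TTCGAA, or to the MYB letters CAACGG or CAACTG.
Ccnb2: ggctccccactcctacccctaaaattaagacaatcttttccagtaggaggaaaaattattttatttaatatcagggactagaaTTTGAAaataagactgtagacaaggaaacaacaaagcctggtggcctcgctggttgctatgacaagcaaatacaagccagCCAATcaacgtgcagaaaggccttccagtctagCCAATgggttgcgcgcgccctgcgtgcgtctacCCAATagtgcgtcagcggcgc
Ccnb1: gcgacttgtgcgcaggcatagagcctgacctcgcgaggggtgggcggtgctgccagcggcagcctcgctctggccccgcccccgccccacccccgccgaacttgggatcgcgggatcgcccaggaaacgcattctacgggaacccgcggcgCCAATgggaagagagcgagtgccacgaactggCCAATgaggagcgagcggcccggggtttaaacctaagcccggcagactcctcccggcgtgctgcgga
Cdk1: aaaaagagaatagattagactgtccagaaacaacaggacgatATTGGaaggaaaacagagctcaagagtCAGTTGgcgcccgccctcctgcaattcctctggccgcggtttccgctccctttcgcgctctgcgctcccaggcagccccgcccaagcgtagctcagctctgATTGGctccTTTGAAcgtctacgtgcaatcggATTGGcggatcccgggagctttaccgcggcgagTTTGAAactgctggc
Cdkn3: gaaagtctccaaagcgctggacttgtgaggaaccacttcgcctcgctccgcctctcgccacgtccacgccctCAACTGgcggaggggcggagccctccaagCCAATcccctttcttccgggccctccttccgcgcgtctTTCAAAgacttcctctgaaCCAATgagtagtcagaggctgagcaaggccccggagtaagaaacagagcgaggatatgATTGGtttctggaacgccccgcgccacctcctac
Ccna1: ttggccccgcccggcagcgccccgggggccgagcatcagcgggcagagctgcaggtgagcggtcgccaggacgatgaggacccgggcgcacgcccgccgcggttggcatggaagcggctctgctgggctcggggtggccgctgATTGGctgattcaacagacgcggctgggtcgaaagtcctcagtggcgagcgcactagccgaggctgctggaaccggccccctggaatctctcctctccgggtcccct

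These windows are chr9:70421555-70421804 for Ccnb2, chr13:100786487-100786736 for Ccnb1, chr10:69352913-69353162 for Cdk1 and chr3:55055056-55055305 for Ccna1 on the minus strand, and chr14:46760291-46760540 for Cdkn3 on the plus strand. The GENCODE genes of Ccna1, Ccnb1 and Cdk1 begin farther upstream than the RefSeq start, so the Ccna1 window lies wholly inside the annotated gene and the Ccnb1 and Cdk1 windows overlap it in part. Ccnb2, Cdk1 and Cdkn3 each held 3 CCAAT matches, where 2.8% of the 32841 mouse promoters in the RefSeq table held at least 3. Ccnb1 held 2, a number that 10.1% of promoters reached. Repeated matches were not particular to genes called lower. Ccng1 and Ccnt2 with 3 and Cdk2ap2 with 6 were called higher. Cdk16, not called, held 3 in a promoter entry, and Cdk5rap3, called lower, held 4 and 3 in its entries. Ccnb2 and Cdkn3 held 1 CHR match and Cdk1 held 2, against at least 1 match in 17.1% of promoters. Ccna1 held 1 CCAAT match and none for CHR or MYB. The log2 change was -8.97 for Ccna1, -6.66 for Cdkn3, -5.12 for Ccnb2, -2.86 for Ccnb1 and -0.46 for Cdk1. Whether the matches had a part in these changes was not tested. Among the 53 members with a promoter entry, CCAAT was found in 8 of 20 called higher, 13 of 25 called lower and 4 of 8 not called, against 33.9% of all promoters, and CHR in 2 of 20 called higher, 5 of 25 called lower and 1 of 8 not called. The MYB letters were found in 4 of 20 called higher, 3 of 25 called lower and 1 of 8 not called, against 14.8% of all promoters. The E2F letters TTTCCCGC or TTTGGCGC were found in 1 of 20 called higher and 1 of 25 called lower (1.3% of all promoters), and the CRE letters TGACGTCA likewise in 1 of 20 and 1 of 25 (1.5% of all promoters).

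**Figure D2:**
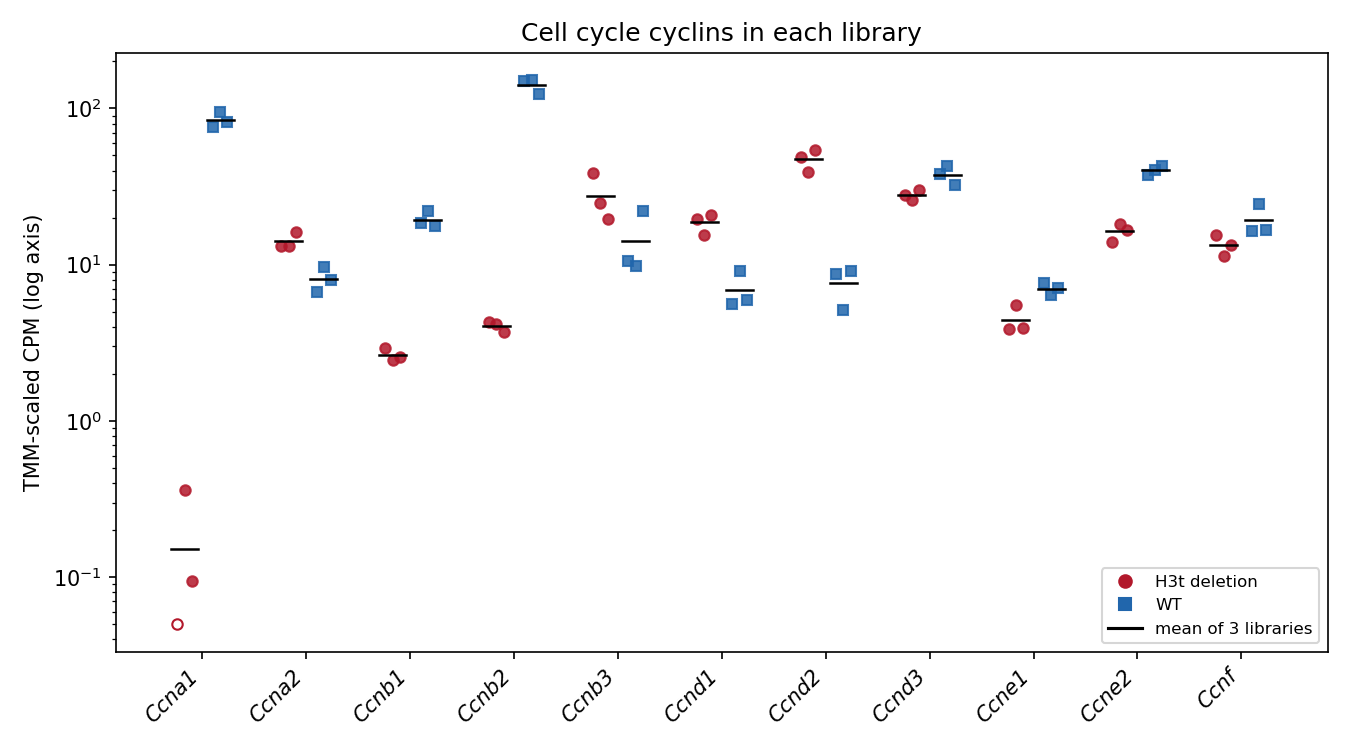
TMM-scaled CPM (log axis) of the A-, B-, D- and E-type cyclins and Ccnf in each library, with 3 H3t deletion libraries left of 3 WT libraries for each gene. An open circle at 0.05 stands for a library with 0 counts, and bars give the group means. The deletion points of Ccna1, Ccnb1 and Ccnb2 lie below all WT points, and those of Ccna2, Ccnd1 and Ccnd2 lie above them.

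The D-type cyclins, which carry growth signals to CDK4 and CDK6, were led per kilobase of exon by Ccnd2 in the deletion and by Ccnd3 in WT. Ccnd2 (chr6:127125162-127152193, minus strand), whose loss leaves mice with small testes, had 49.2, 39.2 and 53.9 CPM in the deletion and 8.72, 5.12 and 9.16 CPM in WT. Ccnd1 had 19.7, 15.6 and 20.8 CPM in the deletion and 5.60, 9.07 and 5.92 CPM in WT. The groups did not overlap for either gene, and the log2 changes were 2.65 (SE 0.21, edgeR adjusted p = 8.95e-09) for Ccnd2 and 1.42 (SE 0.23, edgeR adjusted p = 2.92e-05) for Ccnd1, against 0.35 for Ccnd2 and -0.82 for Ccnd1 with Sertoli-level scaling. Ccnd3 had 28.1, 25.9 and 30.2 CPM in the deletion and 38.1, 42.6 and 32.6 CPM in WT (log2 -0.43, SE 0.14, edgeR adjusted p = 0.0105). That small difference was not called without WT replicate 2 (-0.35, edgeR adjusted p = 0.0562), and it was 0.11 with upper-quartile factors and 0.21 with none. Within the D-type level per kilobase of exon, which needs no scaling factor, Ccnd2 took 41.2% ± 1.11 in the deletion and 12.7% ± 4.69 in WT, Ccnd1 took 32.5% ± 0.730 in the deletion and 21.96% ± 4.01 in WT, and Ccnd3 took 26.3% ± 1.70 in the deletion and 65.3% ± 2.53 in WT (SD, n = 3 each). The groups were separate for each of the 3 shares, with an exact two-sided permutation p = 0.1, the smallest that 3 libraries against 3 can give. From counts without length, Ccnd1 took 19.8% in the deletion and Ccnd3 29.96%, so their order there depends on the length correction, and the Ccnd1 difference between the groups was 6.78 percentage points in place of 10.5.

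**Figure D3:**
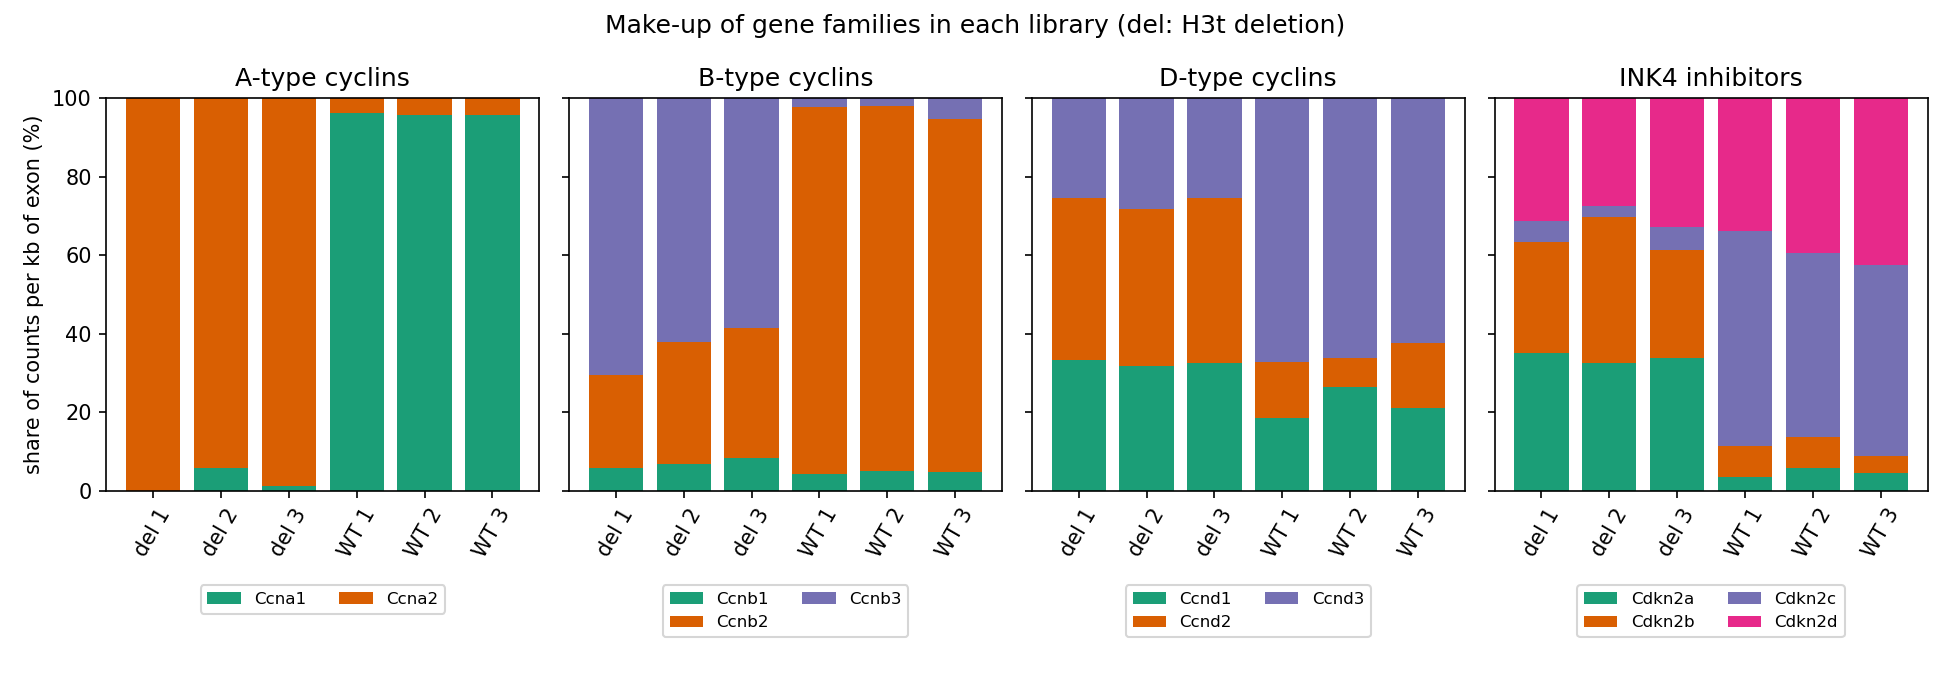
Share of each gene in the summed level per kilobase of exon of its family, in percent, for the A-type, B-type and D-type cyclins and the INK4 inhibitors, with the H3t deletion libraries left of the WT libraries. In the deletion Ccna2, Ccnb3 and Ccnd2 hold the largest shares of their families, and in WT Ccna1, Ccnb2 and Ccnd3 do.

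The E-type cyclins, partners of CDK2 at the start of DNA replication, were both called lower with TMM scaling. With upper-quartile factors Ccne1 stood at -0.11 and with none at -0.02, and it was not called with either. Ccne2 fell by 1.30 on the log2 scale (SE 0.15, edgeR adjusted p = 8.15e-07), with 14.0, 18.3 and 16.8 CPM in the deletion and 37.7, 40.5 and 42.6 CPM in WT. The groups stood well apart for that gene. Ccne1 differed by -0.66 (SE 0.29, edgeR adjusted p = 0.0444), with 3.87, 5.52 and 3.91 CPM in the deletion and 7.63, 6.39 and 7.05 CPM in WT, and its call was lost when any library other than deletion replicate 2 was left out, at -0.56 to -0.74 with edgeR adjusted p-values of 0.0547 to 0.125. Ccnf, whose product is the substrate-binding F-box subunit of a ubiquitin ligase and activates no CDK, averaged 13.4 ± 1.99 CPM in the deletion against 19.2 ± 4.61 CPM in WT (SD, n = 3 each; log2 -0.53, SE 0.20, edgeR adjusted p = 0.0248). Its call was lost without deletion replicate 2 (-0.41, edgeR adjusted p = 0.0961) or WT replicate 2 (-0.32, edgeR adjusted p = 0.162), and its sign turned with upper-quartile factors (0.01) and with none (0.11).

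Of the cell cycle kinases, Cdk4 was higher, Cdk1, Cdk2 and Cdk6 were called lower with TMM scaling but not with upper-quartile factors or none, and Cdk7 was not called. Cdk4, the G1 kinase of the D-type cyclins, had 32.0, 31.8 and 34.3 CPM in the deletion and 12.0, 9.77 and 11.3 CPM in WT (log2 1.58, SE 0.16, edgeR adjusted p = 1.95e-07), but stood at -0.71 with Sertoli-level scaling. Cdk6, the other D-type partner, had 13.2, 12.8 and 11.3 CPM in the deletion and 14.3, 19.1 and 22.6 CPM in WT (log2 -0.59, SE 0.20, edgeR adjusted p = 0.0114). The groups did not overlap for either kinase, but the call of Cdk6 was lost without WT replicate 3 (-0.47, edgeR adjusted p = 0.0542) and its change was 0.0511 with no scaling factor. Cdk2, which mice need for meiosis, had 29.8, 23.5 and 21.8 CPM in the deletion and 27.4, 30.6 and 45.8 CPM in WT (log2 -0.46, SE 0.19, edgeR adjusted p = 0.0332). WT replicate 3 stood above the other WT libraries, the groups overlapped, and the call was lost without it (-0.25, edgeR adjusted p = 0.184), without deletion replicate 2 (-0.41, edgeR adjusted p = 0.0862) or without deletion replicate 3 (-0.37, edgeR adjusted p = 0.102). Cdk1, the kinase of mitotic and meiotic division, had 21.1, 19.1 and 13.3 CPM in the deletion and 21.6, 26.2 and 25.9 CPM in WT (log2 -0.46, SE 0.19, edgeR adjusted p = 0.0299). Its call was lost without deletion replicate 3 (-0.29, edgeR adjusted p = 0.139), WT replicate 2 (-0.43, edgeR adjusted p = 0.0763) or WT replicate 3 (-0.47, edgeR adjusted p = 0.0575). With upper-quartile factors Cdk1 and Cdk2 each stood at 0.08, and with no factor at 0.17 each. Cdk7, the kinase that activates other CDKs, had 21.6, 26.2 and 22.2 CPM in the deletion and 14.9, 22.2 and 21.005 CPM in WT and was not called (log2 0.26, SE 0.18, edgeR adjusted p = 0.182).

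Of the INK4 inhibitors, Cdkn2c and Cdkn2d were lower, and with TMM scaling Cdkn2a and Cdkn2b were higher. Cdkn2c (p18; chr4:109660876-109667189, minus strand) and Cdkn2d (p19) are together required for fertility of male mice. Cdkn2c had 2.95, 1.45 and 2.96 CPM in the deletion and 76.9, 70.1 and 80.5 CPM in WT (log2 -4.95, SE 0.20, edgeR adjusted p = 2.05e-12). Cdkn2d had 10.2, 7.96 and 9.44 CPM in the deletion and 28.0, 34.6 and 41.3 CPM in WT (log2 -1.91, SE 0.19, edgeR adjusted p = 1.13e-07). No deletion library reached a WT library for either gene. Cdkn2a, the locus of p16 and ARF, averaged 7.59 ± 0.771 CPM in the deletion against 3.09 ± 0.840 CPM in WT (SD, n = 3 each; log2 1.28, SE 0.31, edgeR adjusted p = 0.00122). Cdkn2b (p15) averaged 8.19 ± 1.27 CPM in the deletion against 5.16 ± 1.30 CPM in WT (SD, n = 3 each; log2 0.66, SE 0.28, edgeR adjusted p = 0.0398). Both were negative with Sertoli-level scaling, at -0.96 for Cdkn2a and -1.61 for Cdkn2b, and the call of Cdkn2b was lost without deletion replicate 1, deletion replicate 2, WT replicate 1 or WT replicate 3, at 0.43 to 0.71 with edgeR adjusted p-values of 0.0579 to 0.173. Per kilobase of exon, Cdkn2c made up 4.75% ± 1.62 of the INK4 level in the deletion and 50.02% ± 4.07 in WT, and Cdkn2a made up 33.8% ± 1.19 in the deletion and 4.64% ± 1.17 in WT (SD, n = 3 each).

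The CIP/KIP inhibitors Cdkn1a and Cdkn1b were higher with TMM scaling. Cdkn1b (p27), which restrains the growth of many tissues, had 41.7, 39.9 and 53.4 CPM in the deletion and 12.6, 14.5 and 12.3 CPM in WT (log2 1.77, SE 0.16, edgeR adjusted p = 5.84e-08). Cdkn1a (p21), a classical p53 target, had 6.54, 6.24 and 6.48 CPM in the deletion and 0.778, 2.33 and 3.95 CPM in WT (log2 1.43, SE 0.41, edgeR adjusted p = 0.00489). The WT libraries were spread widely for Cdkn1a and the deletion libraries hardly at all, and both genes were negative with Sertoli-level scaling, at -0.50 for Cdkn1b and -0.82 for Cdkn1a. Cdkn3, a phosphatase that acts on CDK2, had 2.30, 2.08 and 0.667 CPM in the deletion and 181, 165 and 173 CPM in WT (log2 -6.66, SE 0.20, edgeR adjusted p = 5.80e-14). It was the deepest loss after Ccna1, with 7 to 25 counts in a deletion library and 1161 to 1415 in a WT library.

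**Figure D4:**
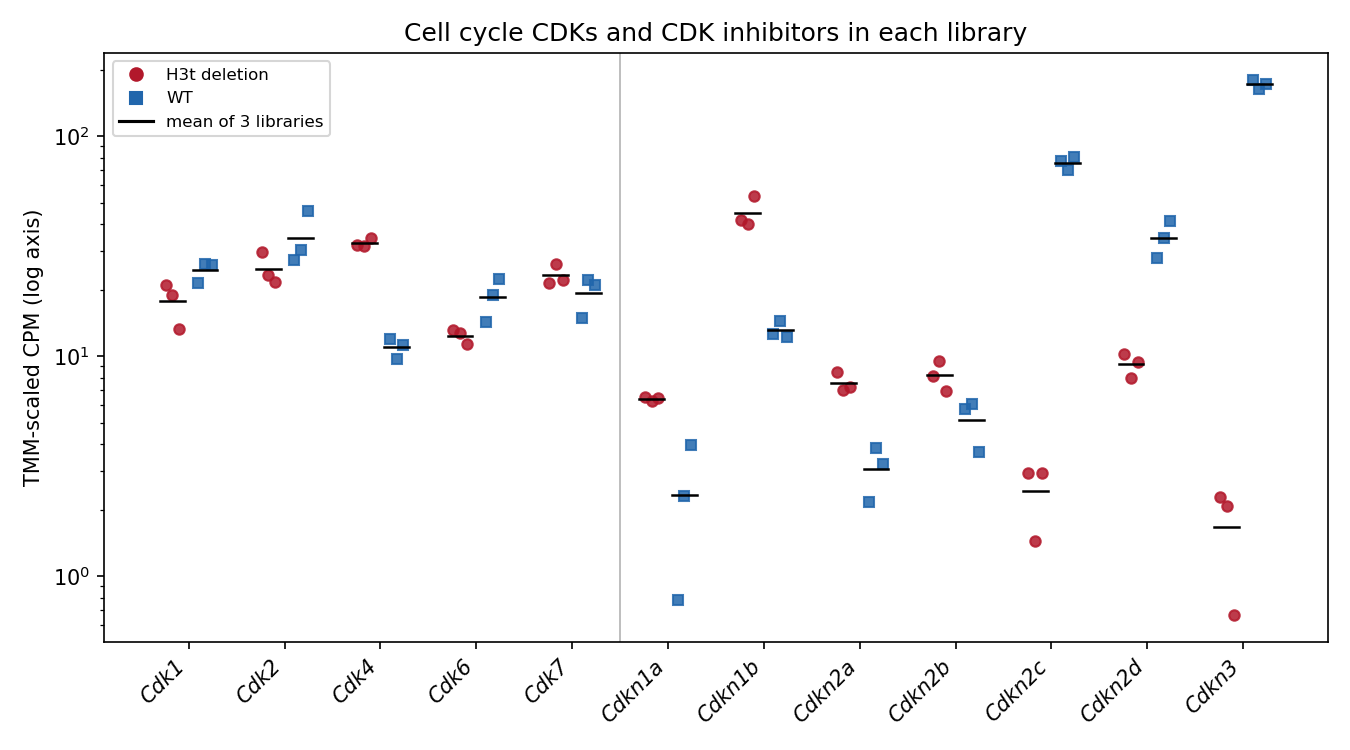
TMM-scaled CPM (log axis) of the cell cycle CDKs and the 7 CDK inhibitors in each library, with the H3t deletion libraries left of the WT libraries for each gene and bars at the group means. Cdkn2c, Cdkn2d and Cdkn3 lie lower in every deletion library, and Cdk4, Cdkn1a, Cdkn1b, Cdkn2a and Cdkn2b lie higher.

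Among the cyclins of transcription complexes, Ccnk stood out by its level. Its product, cyclin K, binds CDK12 and CDK13, which phosphorylate RNA polymerase II during elongation. Ccnk (chr12:108179579-108203359, plus strand) had 26.8, 36.4 and 24.1 CPM in the deletion and 645, 684 and 564 CPM in WT (log2 -4.44, SE 0.14, edgeR adjusted p = 1.30e-13), and per kilobase of exon it ranked 14 of the 63 genes in the deletion, at 9.57 ± 2.13 CPM per kilobase, and 1 in WT, at 207 ± 20.03 CPM per kilobase (SD, n = 3 each). The TMM-scaled differences in the kinases were small. Cdk12 had 125, 127 and 115 CPM in the deletion and 136, 126 and 138 CPM in WT (log2 -0.13, SE 0.09, edgeR adjusted p = 0.192), and Cdk13 had 157, 171 and 155 CPM in the deletion and 198, 201 and 218 CPM in WT (log2 -0.36, SE 0.09, edgeR adjusted p = 0.00131). Cdk12 was called lower with median-of-ratios factors (-0.30, edgeR adjusted p = 0.00486) and higher with upper-quartile factors (0.42, edgeR adjusted p = 0.000322), where Cdk13 stood at 0.19.

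The elongation factor P-TEFb is made of CDK9 and a cyclin T. Ccnt2 had 79.0, 67.9 and 57.3 CPM in the deletion and 21.9, 27.3 and 24.2 CPM in WT (log2 1.47, SE 0.14, edgeR adjusted p = 1.15e-07), and Cdk9 averaged 24.5 ± 4.03 CPM in the deletion against 13.2 ± 0.494 CPM in WT (SD, n = 3 each; log2 0.90, SE 0.18, edgeR adjusted p = 0.000221). Ccnt1, the other cyclin T, was not called (log2 0.30, SE 0.14, edgeR adjusted p = 0.0571), but it was called without deletion replicate 2 (0.36, edgeR adjusted p = 0.0485), deletion replicate 3 (0.40, edgeR adjusted p = 0.0217) or WT replicate 2 (0.36, edgeR adjusted p = 0.0420). Of the Mediator kinase module, Cdk8 was higher, at 46.0 ± 2.25 CPM in the deletion against 29.2 ± 2.11 CPM in WT (SD, n = 3 each; log2 0.65, SE 0.12, edgeR adjusted p = 0.000158), while Cdk19 was not called (0.04, SE 0.10, edgeR adjusted p = 0.693). Their cyclin, Ccnc, was not called either (0.36, SE 0.21, edgeR adjusted p = 0.116), although it was without WT replicate 1 (0.56, edgeR adjusted p = 0.0272). Ccnh, the cyclin of CDK7, was lower at -0.62 (SE 0.14, edgeR adjusted p = 0.000788), and so were Ccnl1 at -0.53 (SE 0.13, edgeR adjusted p = 0.00114) and its splicing-linked kinase Cdk11b at -0.50 (SE 0.10, edgeR adjusted p = 0.000293). With no scaling factor these 3 stood at 0.01, 0.11 and 0.14 in that order. Cdk11b had 181, 164 and 144 CPM in the deletion and 212, 226 and 253 CPM in WT. Ccnl2 was not called (0.06, SE 0.12, edgeR adjusted p = 0.616). With Sertoli-level scaling Ccnt2 stood at -0.80, Cdk9 at -1.37 and Cdk8 at -1.62, all called lower.

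In the cyclin Y branch, whose products act at membranes with CDK14 and CDK16, Ccnyl1 fell and Ccny was not called with TMM scaling. Male mice need Ccnyl1 for fertile sperm. Ccnyl1 had 15.3, 12.6 and 13.4 CPM in the deletion and 186, 184 and 187 CPM in WT (log2 -3.75, SE 0.11, edgeR adjusted p = 4.08e-14). Ccny had 68.1, 55.4 and 63.6 CPM in the deletion and 53.1, 60.1 and 64.0 CPM in WT (log2 0.08, SE 0.12, edgeR adjusted p = 0.540), but was called higher with no scaling factor (0.72, edgeR adjusted p = 1.72e-05). The groups were far apart for Ccnyl1 and overlapped for Ccny. Cdk14 was lower (log2 -1.35, SE 0.22, edgeR adjusted p = 4.31e-05), and its relatives Cdk16 (0.11), Cdk17 (-0.15) and Cdk18 (-0.48) were not called, at edgeR adjusted p-values of 0.0599 to 0.275. Cdk15, of the same family as Cdk14, was higher, at 10.9, 7.78 and 8.58 CPM in the deletion and 2.65, 3.84 and 1.69 CPM in WT (log2 1.71, SE 0.33, edgeR adjusted p = 0.000174). With Sertoli-level scaling Cdk15 stood at -0.53 and was not called.

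Of the remaining cyclins, Ccng1, a p53 target, had 68.6, 83.5 and 72.8 CPM in the deletion and 15.3, 11.3 and 16.1 CPM in WT (log2 2.41, SE 0.15, edgeR adjusted p = 4.95e-10). The deletion libraries all lay above the WT libraries. Its relative Ccng2 was also higher (0.96, SE 0.18, edgeR adjusted p = 0.000127), and the log2 ratio of Ccng1 to Ccng2 was higher by 1.46 in the deletion (exact two-sided permutation p = 0.1). Ccni had 61.6, 44.5 and 55.2 CPM in the deletion and 111, 104 and 89.7 CPM in WT (log2 -0.92, SE 0.13, edgeR adjusted p = 5.59e-06). Ccnj, Ccnjl and Ccnq were higher, at log2 changes of 1.49, 1.37 and 1.84, and Cdk10, the kinase that Ccnq activates, was lower at -0.90 (SE 0.20, edgeR adjusted p = 0.000544), a call not made with upper-quartile factors (-0.36) or with none (-0.26). Ccno, needed for multiciliated cells, was not called (0.29, SE 0.50, edgeR adjusted p = 0.586) and averaged 1.94 ± 0.484 CPM in the deletion against 1.54 ± 0.840 CPM in WT (SD, n = 3 each). Cdk5, a kinase best known from neurons, had 46.1, 39.2 and 44.2 CPM in the deletion and 9.03, 13.02 and 8.18 CPM in WT (log2 2.08, SE 0.18, edgeR adjusted p = 2.81e-08). Cdk20, linked to cilia, had 3.41, 2.17 and 1.72 CPM in the deletion and 22.3, 24.4 and 28.3 CPM in WT (log2 -3.35, SE 0.25, edgeR adjusted p = 4.87e-09). With Sertoli-level scaling Ccng1 stood at 0.11, Cdk5 at -0.17, Ccnj at -0.80 and Ccnq at -0.44, none of them called. At that level Ccng2, at -1.31, and Ccnjl, at -0.91, were called lower.

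The proteins named for binding a CDK, a cyclin or an inhibitor are neither kinases nor cyclins, and the genes with the highest levels among them fell. Cdk5rap2, whose product anchors microtubule nucleation at the centrosome, had 54.3, 58.5 and 62.6 CPM in the deletion and 687, 709 and 705 CPM in WT (log2 -3.58, SE 0.09, edgeR adjusted p = 1.54e-14). Cdkn2aip, which encodes a partner of ARF, had 23.9, 18.3 and 24.98 CPM in the deletion and 182, 136 and 166 CPM in WT (log2 -2.85, SE 0.14, edgeR adjusted p = 2.03e-11). No library of one group reached the other for either gene. Cdk5rap3, of the UFM1 ligase complex, had 25.9, 32.7 and 28.7 CPM in the deletion and 95.3, 97.8 and 107 CPM in WT (log2 -1.78, SE 0.11, edgeR adjusted p = 7.68e-10). Ccnb1ip1, the meiotic crossover factor HEI10, had 0.276, 0.995 and 1.05 CPM in the deletion and 6.23, 5.35 and 7.47 CPM in WT (log2 -3.01, SE 0.46, edgeR adjusted p = 1.97e-05). Its deletion libraries held 3 to 11 counts each. The chromatin-complex subunits Cdk2ap1 (1.96, SE 0.47, edgeR adjusted p = 0.00119) and Cdk2ap2 (2.16, SE 0.38, edgeR adjusted p = 8.27e-05) and the cyclin D-binding Ccndbp1 (1.46, SE 0.18, edgeR adjusted p = 1.50e-06) were higher. With Sertoli-level scaling Cdk2ap1 stood at -0.27 and Cdk2ap2 at -0.08, neither called, and Ccndbp1 at -0.81, called lower. Cdk5rap1, a mitochondrial tRNA-modifying enzyme, was called higher (0.64, SE 0.22, edgeR adjusted p = 0.0137) but not without WT replicate 1 (0.49, edgeR adjusted p = 0.0682), and Cdkn2aipnl (0.54, SE 0.24, edgeR adjusted p = 0.0450) was not called without deletion replicate 2, deletion replicate 3, WT replicate 1 or WT replicate 2, at 0.39 to 0.55 with edgeR adjusted p-values of 0.0664 to 0.176. Cdk5r1, the p35 activator of CDK5, was not called (-0.79, SE 0.65, edgeR adjusted p = 0.271), but without deletion replicate 1, its highest deletion library at 2.30 CPM, it stood at -1.71 (edgeR adjusted p = 0.0405).

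Ratios between related genes within 1 library need no scaling factor. Of 17 such pairs, the log2 ratios of the 3 deletion libraries were separate from those of the 3 WT libraries in 15. The pairs were taken within families, with earlier results of these data known. In TMM-scaled CPM the groups did not overlap in 85.9% of all genes, and the share for ratios of other gene pairs was not computed. Each of the 15 pairs had an exact two-sided permutation p = 0.1, the smallest possible, and an adjusted p of 0.113 over the pairs, so none could pass 0.05. The ratio of Ccna1 to Ccna2 averaged -6.67 ± 1.59 in the deletion and 3.37 ± 0.106 in WT (SD, n = 3 each), a difference of -10.04 that was -8.89 with an offset of 2 counts in place of 0.5. The ratio of Ccnb3 to Ccnb1 averaged 3.30 ± 0.393 in the deletion and -0.55 ± 0.765 in WT, that of Ccny to Ccnyl1 2.18 ± 0.0548 in the deletion and -1.66 ± 0.138 in WT, and that of Cdkn2c to Cdkn2d -1.95 ± 0.411 in the deletion and 1.14 ± 0.270 in WT (SD, n = 3 each). In each of these 4 pairs the gene that was more abundant in counts was another one in the deletion than in WT, except that in WT replicate 3 Ccnb3 exceeded Ccnb1. The ratio of Ccnd3 to Ccnd2 averaged -0.75 ± 0.129 in the deletion and 2.33 ± 0.636 in WT, and that of Cdk4 to Cdk6 1.40 ± 0.172 in the deletion and -0.74 ± 0.418 in WT (SD, n = 3 each). For Ccnb1 to Ccnb2 the means were -0.61 ± 0.129 in the deletion and -2.87 ± 0.132 in WT (SD, n = 3 each), so Ccnb2 lost more than Ccnb1. The ratios of Cdk1 to Cdk2 (difference -0.04, exact p = 0.9) and of Cdkn1a to Cdkn1b (difference -0.08, exact p = 0.8) overlapped between the groups.

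**Figure D5:**
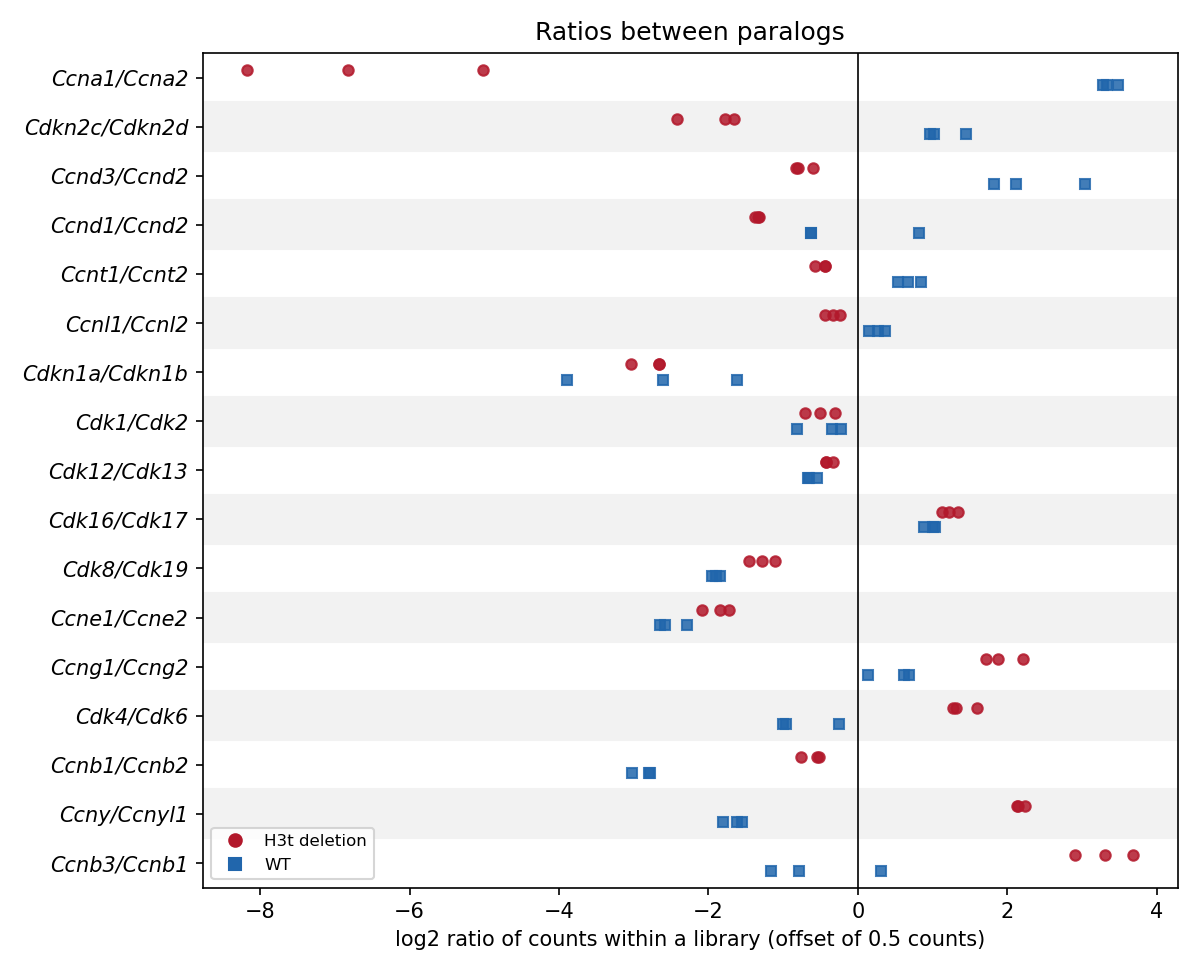
Log2 ratio of the counts of related genes within each library, with an offset of 0.5 counts, for 17 pairs. Circles are H3t deletion libraries, drawn above squares for WT libraries. Ccna1/Ccna2 differs most, by -10.04, and Cdk1/Cdk2 and Cdkn1a/Cdkn1b overlap.

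The order of the genes by level per kilobase of exon differed between the groups. In the deletion Cdk11b came first, at 43.5 ± 4.82 CPM per kilobase, followed by Cdk16 at 28.6 ± 2.59, Ccng1 at 21.3 ± 2.18, Cdk5 at 19.9 ± 1.62 and Cdk19 at 19.2 ± 1.71 (SD, n = 3 each). The last 3 of these lay within their spreads of each other. In WT, Ccnk was followed by Ccnb2 at 92.5 ± 10.04 CPM per kilobase, Cdkn3 at 72.8 ± 3.42, Cdk11b at 61.4 ± 5.55, Cdk5rap2 at 53.8 ± 0.934, Ccnyl1 at 53.8 ± 0.405 and Ccna1 at 45.8 ± 5.17 (SD, n = 3 each), where Cdk5rap2 and Ccnyl1 could not be ranked against each other. Ccna1 ranked last of the 63 genes in the deletion and 7 in WT.

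The genes around the CDKs were read from 5 lists, of which 76 genes were tested, 24 of them called higher and 45 lower, where 38.4% of all genes were called higher and 46.1% lower. The excess of lower genes depended on the factors. With median-of-ratios factors 22 were higher and 46 lower, against 35.4% and 48.3% of all genes. With no scaling factor 32 were higher and 31 lower, against 49.2% and 37.7% of all genes. With upper-quartile factors 30 were higher and 32 lower, against 47.6% and 38.8% of all genes. Of the list of CDK phosphorylation and accessory subunits, 3 of 14 were higher (Cables1 at 2.16, Cdc25b at 2.10 and Cks1b at 1.04) and 10 lower (median log2 change -1.48). Spdya, which activates CDK2 at meiotic telomeres, fell by 5.10 on the log2 scale (SE 0.16, edgeR adjusted p = 1.45e-13), and the phosphatase genes Cdc14a, Cdc14b and Cdc25a stood at -5.05, -2.16 and -1.67, all called. Of the MuvB, MYB and FOXM1 list, whose complexes drive genes of division, 1 of 8 was higher and 6 lower (median -1.07), with Foxm1 at -3.53 (SE 0.13, edgeR adjusted p = 5.54e-13), Mybl1 at -2.07, Lin9 at -2.12 and the higher Rbbp4 at 0.20 (SE 0.09, edgeR adjusted p = 0.0487). Of the Rb pocket proteins and E2F partners, which the CDKs of G1 act on, 5 of 13 were higher and 6 lower (median -0.06). With TMM scaling Rb1 stood at 1.25, Tfdp2 at 2.04, Rbl1 at -2.30, E2f8 at -2.98 and Rbl2 at -0.30, all called. At Sertoli level Rb1 stood at -1.02 and Tfdp2 at -0.24. Of the list for the degradation of cyclins and inhibitors, 11 of 26 were higher and 13 lower (median -0.30), with Skp2, which targets p27, at -3.97, Cdc20 at -3.73, Cdc27 at -1.74, Skp1a at -0.41 and Anapc5 at 0.89, all called. Of the general proliferation markers, 4 of 15 were higher and 10 lower (median -0.83). The mitotic kinases Aurka, at -4.84, and Plk1, at -3.81, fell most, with Top2a at -1.84, Tpx2 at -0.79 and Mki67 at -0.49, all called. The 4 higher ones were Mcm2 at 1.31, Mcm4 at 1.01, Mcm6 at 0.73 and Mcm3 at 0.54. With Sertoli-level or Leydig-level scaling no gene of these lists was called higher, where 3.03% and 0.933% of all genes were. At Sertoli level 69 were called lower, against 77.7% of all genes, and at Leydig level 74, against 86.8%.

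Some of the counts rest on sequence that other genes share. For 6 members at least 10% of the 50-base stretches of their transcripts occur in other genes, with Cdk2ap1 highest at 56.1%, followed by Ccnyl1 at 23.7%, Ccnb1 at 23.4%, Ccni at 14.3%, Cdk10 at 10.7% and Ccnb1ip1 at 10.04%, the last through the overlapping Rpph1. Exons of 23 members overlap exons of a gene on the other strand, among them 1100 bases of Ccnd1, 740 of Ccnd2, 641 of Cdk4 and 510 of Ccna2. Since no source used here gives the strand setting of the counting, it is uncertain to which gene reads from those stretches were assigned.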

How the data were processed

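RNA from testis cryosections was extracted with Trizol and column purification, and the SMART-Seq Stranded kit gave the libraries (per the labels' protocols). The authors' deposited file gives raw counts per Ensembl gene, made with Trim Galore, HISAT2, GRCm38 and featureCounts, per the submitters' processing notes. The annotation release, tool versions and strand setting were not given in the sources used here. The table has 54100 genes, 0 without a name, and 0 unused columns of per-sample values. All 54100 are in GENCODE M21 on the same chromosome, from which 1-based coordinates and exon lengths were taken, and promoters came from RefSeq (GRCm38.p6).

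The fit used edgeR 4.0.16 in R 4.3.3 (filterByExpr, TMM, glmQLFit and glmQLFTest, Benjamini-Hochberg over 17038 genes, false discovery rate 0.05). Log2 fold changes are deletion minus WT, and the biological coefficient of variation was 13.1%. Standard errors were derived from the fold change and its F statistic. Only the edgeR fit was run on simulated counts, drawn for both groups from the WT means with few genes changed, in both directions. That setting could not test the scaling in these data, where most genes were called. Replicates were numbered in accession order. The labels do not state that libraries came from separate mice apart from numbered titles, and the p-values therefore cover the spread among these libraries, part of which may be technical. No 2 libraries of a group agreed within sampling noise (chi-square per degree of freedom 4.48 to 6.88). Intervals cover counting error only.

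The members, marker lists, pathway lists and pairs were chosen with earlier results of these data known. Values in every library were given, per role class, for the 3 members with the highest mean CPM and the 3 called members with the largest change, and for the 6 pairs whose ratio changed most. Up to 3 abundant called genes and the 2 largest changes were named per pathway list. Other members, the family shares other than those of the D-type cyclins, the printed promoters and the further genes' values were chosen after their values were seen. For ratios and shares, groups were compared by the exact permutation test, two-sided (SciPy 1.17.1). Alternatives were other scalings, filters and thresholds, a 1.5-fold test, DESeq2 1.42.0, limma voom (limma 3.58.1), each library left out in turn, other offsets and shares from counts.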

Additional observations from a re-analysis of the deposited data

How the results depend on the processing

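With 3 libraries a group, small differences were not detectable for genes with few counts, such as Cdk5r1, Ccno and Ccnb1ip1. The lowest library held 3 counts for Cdk5r1 and Ccnb1ip1, 5 for Ccno, Cdkn1a and Cdk2ap1, and 6 for Cdk2ap2. Ccna1 had 0 counts in deletion replicate 1. No paired analysis was run because the labels name no pairing between the groups. Some numbers in the sample titles are adjacent across the groups, and the labels do not say whether such libraries shared a litter or batch. The causes of the changes below were not tested beyond the scaling itself. The reported 24 members higher and 27 lower were 19 and 17 with the 1.5-fold test. They were 34 and 16 with no scaling factor, and 33 and 16 with upper-quartile factors. Of all genes, the 1.5-fold test called 40.4% lower, and its share called higher is not given here. With no factor 49.2% of all genes were called higher and 37.7% lower, and with upper-quartile factors 47.6% and 38.8%. The 24 pathway genes higher and 45 lower were 32 and 31 with no factor, and 30 and 32 with upper-quartile factors. At Sertoli level 0 members were called higher and 54 lower, and 0 pathway genes higher and 69 lower. Of all genes 3.03% were called higher and 77.7% lower at that level. At Leydig level 0 members were called higher and 60 lower, and 0 pathway genes higher and 74 lower. Of all genes 0.933% were called higher and 86.8% lower there. The median member change was -2.77 (Leydig), -2.23 (Sertoli), -0.12 (median-of-ratios), 0.69 (none) and 0.59 (upper-quartile). From counts without length, the D-type share differed by 6.78 percentage points for Ccnd1, 35.3 for Ccnd2 and -42.1 for Ccnd3. Leaving out 1 library gave 22 to 24 members higher, 23 to 27 lower and a median of -0.06 to 0.05, and 21 to 24 pathway genes higher and 42 to 45 lower. The shares of all genes called without 1 library were not computed.

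Signs turned for single genes as follows. With median-of-ratios factors and with DESeq2, Ccnl2 stood at -0.11, Ccny at -0.0947 (-0.0945 with DESeq2), Cdk16 at -0.0605 (-0.0604 with DESeq2) and Cdk19 at -0.12. With no factor, Ccnd3 stood at 0.21, Ccnf at 0.11, Ccnh at 0.0144, Ccnl1 at 0.11, Cdk1 at 0.17, Cdk11b at 0.14, Cdk12 at 0.51, Cdk13 at 0.29, Cdk17 at 0.49, Cdk18 at 0.16, Cdk2 at 0.17 and Cdk6 at 0.0511. With upper-quartile factors, Ccnd3 stood at 0.11, Ccnf at 0.0119, Ccnl1 at 0.008, Cdk1 at 0.0761, Cdk11b at 0.0424, Cdk12 at 0.42, Cdk13 at 0.19, Cdk17 at 0.39, Cdk18 at 0.0671 and Cdk2 at 0.0753. At Sertoli and then Leydig level, Ccna2 stood at -1.46 and -2.03, Ccnb3 at -1.31 and -1.83, Ccnc at -1.93 and -2.45, Ccnd1 at -0.82 and -1.40, Ccndbp1 at -0.81 and -1.35, Ccng2 at -1.31 and -1.86, Ccnj at -0.80 and -1.32, Ccnjl at -0.91 and -1.45, Ccnl2 at -2.22 and -2.75, Ccno at -1.92 and -2.51, Ccnq at -0.44 and -0.96, Ccnt1 at -1.97 and -2.51, Ccnt2 at -0.80 and -1.35, and Ccny at -2.20 and -2.74. Cdk15 stood at -0.53 and -1.11, Cdk16 at -2.17 and -2.71, Cdk19 at -2.23 and -2.77, Cdk2ap1 at -0.27 and -0.85, Cdk2ap2 at -0.0832 and -0.64, Cdk4 at -0.71 and -1.24, Cdk5 at -0.17 and -0.74, Cdk5rap1 at -1.62 and -2.18, Cdk7 at -2.002 and -2.55, Cdk8 at -1.62 and -2.16, Cdk9 at -1.37 and -1.92, Cdkn1a at -0.82 and -1.38, Cdkn1b at -0.50 and -1.05, Cdkn2a at -0.96 and -1.54, Cdkn2aipnl at -1.74 and -2.27, and Cdkn2b at -1.61 and -2.15. At Leydig level Ccnd2 stood at -0.17 and Ccng1 at -0.40. Leaving out 1 library, Ccnl2 ran from -0.016 to 0.17, Ccno from -0.0409 to 0.79, Ccny from -0.023 to 0.17, Cdk19 from -0.0572 to 0.0994, the ratio of Cdkn1a to Cdkn1b from -0.67 to 0.46 and that of Cdk1 to Cdk2 from -0.22 to 0.0765.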
